A study of Mus musculus with 6 samples.

Results

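The EphB receptors and the ephrin-B ligands form a small signalling family of 8 genes in the mouse, the receptors Ephb1, Ephb2, Ephb3, Ephb4 and Ephb6 and the ligands Efnb1, Efnb2 and Efnb3. They were taken by symbol from the 44788 genes of the ovary count table, and all 8 passed the filter on low counts that left 19423 genes. The family was chosen by its difference between the genotypes in these same counts, with Ephb2 among the genes lost in the mutant, so the values of its members between the genotypes are a description and not a test. No member was added or left out for its value, since all B-class genes of the mouse are included.

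RNA-seq was performed on ovaries of 8-week-old mice on the C57BL/6 J background, with 3 wild type (Bnc1+/+) and 3 Bnc1tr/tr samples. The Bnc1tr/tr mice are homozygous for a 5 bp deletion in exon 4 of Bnc1 that shifts the reading frame, and carry it in every cell of the body. The sources used here name no treatment of these mice, and the labels give neither the day of the estrous cycle nor the litter. The labels number the Bnc1+/+ ovaries 1, 4 and 7 and the Bnc1tr/tr ovaries 1, 2 and 3, and do not say whether an ovary sample was pooled from several animals, so p values measure the spread between these samples. The libraries held 25247770 to 34406296 counts, and the lowest Bnc1+/+ total was above the highest Bnc1tr/tr total. Markers of the ovary were present in all 6 libraries, with the zona pellucida gene Zp3 at 106 to 189 CPM and the inhibin subunit Inha at 1982 to 3934 CPM (CPM, counts scaled to library size after TMM normalization, used throughout). Bnc1 itself was at 13.5 ± 0.407 CPM in Bnc1+/+ and 14.6 ± 3.72 CPM in Bnc1tr/tr ovaries (SD, n = 3 each), and counts over a whole gene do not show the deletion.

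Eph receptors are receptor tyrosine kinases that are switched on by ephrins on the surface of a touching cell. The B-class receptors bind the ephrin-B ligands, which span the membrane, so that a contact sends a forward signal into the cell with the receptor and a reverse signal into the cell with the ligand. These signals push cells apart or hold them together, and they are best known for guiding axons, for sorting cells in epithelia and for setting arteries apart from veins, where ephrin-B2 marks the arterial and EphB4 the venous endothelium. The corpus luteum, which forms from the follicle after ovulation, is among the tissues of the adult in which new vessels grow at each cycle.

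In GRCm38 with the GENCODE M21 annotation, Ephb2 (ENSMUSG00000028664.14) spans chr4:136647539-136835988 and is read from the minus strand, and its exons cover 12608 bases. The other receptors lie on chromosomes 9 (Ephb1), 16 (Ephb3), 5 (Ephb4) and 6 (Ephb6), and the ligands on chromosomes X (Efnb1), 8 (Efnb2) and 11 (Efnb3), so no 2 members are neighbours. RefSeq promoter windows (250 bases before to 50 bases after the gene start, GRCm38.p6) were found for 7 of the 8 members, and not for Efnb3. The windows of Ephb2, the member that differed most between the genotypes, and of Ephb4, the receptor with the highest level, are shown 5′ to 3′ on the strand of the gene. Capitals mark GGGCGG or its reverse complement CCGCCC, the core of the GC box. Ephb2 is at chr4:136835963-136836262 on the minus strand and Ephb4 at chr5:137349859-137350158 on the plus strand.
Ephb2: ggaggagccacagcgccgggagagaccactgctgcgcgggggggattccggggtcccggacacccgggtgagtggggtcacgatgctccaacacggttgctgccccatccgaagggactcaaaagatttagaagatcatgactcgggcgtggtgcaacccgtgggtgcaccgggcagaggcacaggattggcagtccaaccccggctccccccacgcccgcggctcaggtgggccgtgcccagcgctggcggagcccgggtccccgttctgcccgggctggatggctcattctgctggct
Ephb4: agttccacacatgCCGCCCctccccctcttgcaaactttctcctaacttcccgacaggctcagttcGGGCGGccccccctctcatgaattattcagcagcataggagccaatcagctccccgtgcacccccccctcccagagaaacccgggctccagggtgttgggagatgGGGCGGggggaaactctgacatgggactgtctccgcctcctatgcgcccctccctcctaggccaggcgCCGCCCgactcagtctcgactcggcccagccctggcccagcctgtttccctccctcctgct

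Both windows are rich in G and C, at 68.7% for Ephb2 and 64.7% for Ephb4, against a median of 52.7% over 32851 RefSeq windows of the same length. The Ephb2 window held 24 CpG dinucleotides and that of Ephb4 held 14, against a median of 7. GGGCGG, searched on both strands, occurred 0 times in the Ephb2 window and 4 times in that of Ephb4, and in 35.7% of all windows. It also occurred in the windows of Ephb3 (2 times), Ephb6 (5 times) and Efnb2 (3 times), and not in those of Ephb1 and Efnb1. CCAAT, searched on both strands, was found 1 time in the Ephb2 and 1 time in the Ephb4 window and in 37.4% of all windows. TATAAA was found in neither window and in 13.6% of all windows. These are matches of letters, and binding of a factor was not measured.

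Ephb2 was the member that differed most between the genotypes. Its receptor guides axons and positions cells in the intestinal crypt. Its level was 79.8, 89.4 and 100 CPM in Bnc1+/+ replicates 1, 4 and 7, and 15.3, 13.5 and 14.6 CPM in Bnc1tr/tr replicates 1, 2 and 3. Every Bnc1tr/tr ovary was below every Bnc1+/+ ovary, and the ovaries of each genotype lay close together. The means were 89.7 ± 10.1 CPM in Bnc1+/+ and 14.5 ± 0.897 CPM in Bnc1tr/tr (SD, n = 3 each), a 6.19-fold difference and a log2 fold change of -2.63 (standard error 0.11). Behind these values stood 2147, 2959 and 2899 reads of the Bnc1+/+ ovaries, against 431, 352 and 415 reads of the Bnc1tr/tr ovaries, so even the low group was far above a few counts. Among the 19423 genes, 67, Ephb2 included, had a log2 fold change as low or lower, and 25 of these were among the 11409 genes with a mean of at least 10 CPM.

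**Figure D1:**
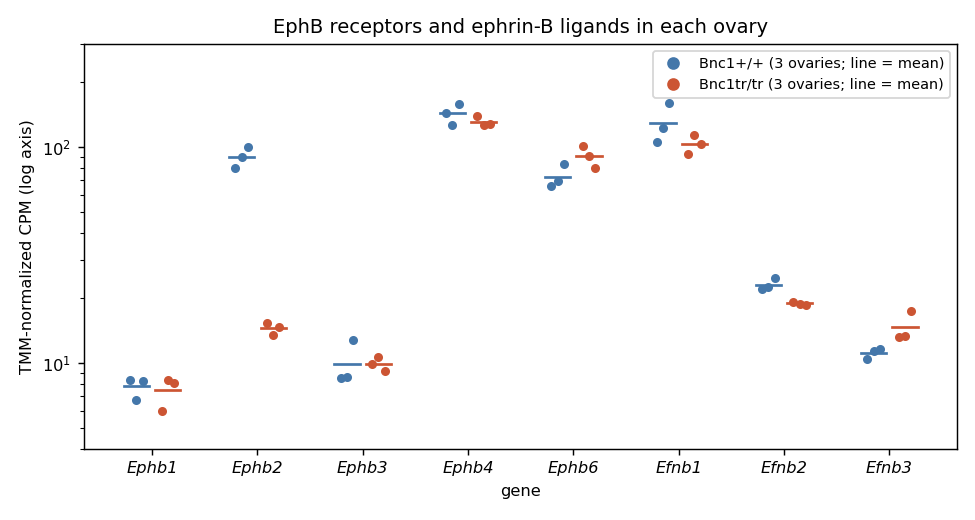
TMM-normalized CPM (log axis) of the 8 genes in each ovary, Bnc1+/+ in blue and Bnc1tr/tr in orange, with a line at the mean of each genotype. Ephb2 lay at 79.8 to 100 CPM in Bnc1+/+ and 13.5 to 15.3 CPM in Bnc1tr/tr ovaries, and for 5 of the other 7 genes the points of the genotypes overlapped.

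The other 4 receptors differed far less. Ephb4, the receptor of venous endothelium, was at 144, 126 and 159 CPM in Bnc1+/+ and at 139, 126 and 128 CPM in Bnc1tr/tr ovaries. The genotypes overlapped, with a log2 fold change of -0.12 (standard error 0.10). Ephb6, whose kinase domain lacks catalytic activity, was at 65.9, 69.4 and 83.2 CPM in Bnc1+/+ and at 101, 90.5 and 79.9 CPM in Bnc1tr/tr ovaries. It was the receptor with the highest values in mutant ovaries relative to wild type, with a log2 fold change of 0.31 (standard error 0.12), but Bnc1tr/tr replicate 3 lay below Bnc1+/+ replicate 7. Ephb3, which acts beside Ephb2 in the intestinal crypt, was at 8.48, 8.61 and 12.7 CPM in Bnc1+/+ and at 9.92, 10.7 and 9.16 CPM in Bnc1tr/tr ovaries. Ephb1, known from the sorting of retinal axons, was at 8.36, 6.74 and 8.28 CPM in Bnc1+/+ and at 6.01, 8.31 and 8.04 CPM in Bnc1tr/tr ovaries. For both of these low receptors the genotypes overlapped, and the log2 fold changes were 0.0021 for Ephb3 and -0.064 for Ephb1, each with a standard error of 0.18.

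Of the ligands, Efnb1 was the most abundant. This gene on the X chromosome encodes a ligand that forms boundaries in the skull and face, and it was at 105, 123 and 160.3 CPM in Bnc1+/+ and at 93.0, 114 and 103 CPM in Bnc1tr/tr ovaries. Bnc1tr/tr replicate 2 was above Bnc1+/+ replicate 1, and the log2 fold change was -0.32 (standard error 0.16). Efnb2, the arterial ligand, was at 22, 22.4 and 24.6 CPM in Bnc1+/+ and at 19.2, 18.8 and 18.6 CPM in Bnc1tr/tr ovaries. Here the genotypes did not overlap, but the difference was small, with a log2 fold change of -0.28 (standard error 0.091). Efnb3, the ligand that keeps axons from crossing the midline of the spinal cord, was at 10.4, 11.3 and 11.6 CPM in Bnc1+/+ and at 13.2, 13.3 and 17.4 CPM in Bnc1tr/tr ovaries. All Bnc1tr/tr values were above those of Bnc1+/+, and the log2 fold change was 0.40 (standard error 0.14).

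In edgeR's quasi-likelihood fit over all genes, 1 of the 8 members, Ephb2, was past the threshold of 0.05 after Benjamini-Hochberg adjustment, and 0 members were higher. The corresponding shares of all genes tested were 7.06% past the threshold, 4.19% lower and 2.88% higher in Bnc1tr/tr ovaries. Since the family was chosen on this contrast, nothing is read from the count. The CPM ranges of the genotypes did not overlap for 3 members (Ephb2, Efnb2 and Efnb3), or 37.5%, against 30.8% of all genes tested. The median log2 fold change of the 8 members was -0.093, against 0.018 over all genes, and 5 of the 8 values were negative. Across 14 alternatives of scaling, filter, tool and ovaries the log2 fold change of Ephb2 ranged from -2.72 to -2.53. That of Ephb4 ranged from -0.21 to -0.024, that of Ephb6 from 0.23 to 0.41, and those of the ligands kept their signs, while Ephb1 changed sign under 2 and Ephb3 under 7 of the 14. Library size as the sole scaling moved the median of all genes from 0.018 to 0.12 on the log2 scale.

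To compare the genes with each other, CPM were divided by the length of the exons in kilobases. By this measure Efnb1 and Ephb4 were the most abundant members in Bnc1+/+ ovaries, at 37.5 ± 8.15 and 30.7 ± 3.55 CPM per kb (SD, n = 3 each), and their ranges overlapped. Ephb6 followed at 19.3 ± 2.42 CPM per kb and Ephb2 at 7.12 ± 0.80 CPM per kb, each apart from its neighbours in every ovary. Efnb3 (3.49 ± 0.191 CPM per kb) and Efnb2 (3.36 ± 0.197 CPM per kb) overlapped in range, and Ephb3 (1.49 ± 0.358 CPM per kb) and Ephb1 (1.11 ± 0.131 CPM per kb) were lowest (SD, n = 3 each). In Bnc1tr/tr ovaries the other 7 genes kept their order, and Ephb2 went from the fourth to the seventh place, at 1.15 ± 0.0711 CPM per kb (SD, n = 3), with a range that overlapped that of Ephb1 at the bottom. With the longest transcript as the length, Efnb2 and Efnb3 changed places in Bnc1+/+ ovaries, and Ephb2 came last in Bnc1tr/tr ovaries.

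The summed level of the 5 receptors was 57.2, 54.8 and 67.3 CPM per kb in Bnc1+/+ and 60.2, 54.9 and 52.5 CPM per kb in Bnc1tr/tr ovaries, and the genotypes overlapped on this scale. Without division by length they did not, since the summed CPM was 306, 299.9 and 363 in the Bnc1+/+ group and 271, 249 and 240.2 in the Bnc1tr/tr group, and Ephb2 is the longest of the receptors. The make-up of the sum per kb differed between the genotypes. The share of Ephb2 in Bnc1+/+ ovaries was 11.1%, 12.9% and 11.8%, and the share in Bnc1tr/tr ovaries was 2.02%, 1.96% and 2.21%. Ephb6 made up 30.5%, 33.5% and 32.8% of the Bnc1+/+ sums, against 44.3%, 43.7% and 40.3% of the Bnc1tr/tr sums. The share of Ephb4 overlapped between the genotypes, at 51.4 ± 2.39% in Bnc1+/+ and 50.6 ± 1.85% in Bnc1tr/tr ovaries (SD, n = 3 each). The ratio of Ephb4 to Ephb2 was 3.82 to 4.89 in Bnc1+/+ ovaries and 23.9 to 25.2 in Bnc1tr/tr ovaries. That of Ephb4 to its vascular ligand Efnb2 was 8.28 to 9.62 in Bnc1+/+ and 9.88 to 10.7 in Bnc1tr/tr ovaries, a smaller difference but also without overlap. The 3 ligands summed to 37.0, 42.3 and 53.7 CPM per kb in Bnc1+/+ and to 33.9, 40.1 and 38.0 CPM per kb in Bnc1tr/tr ovaries.

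**Figure D2:**
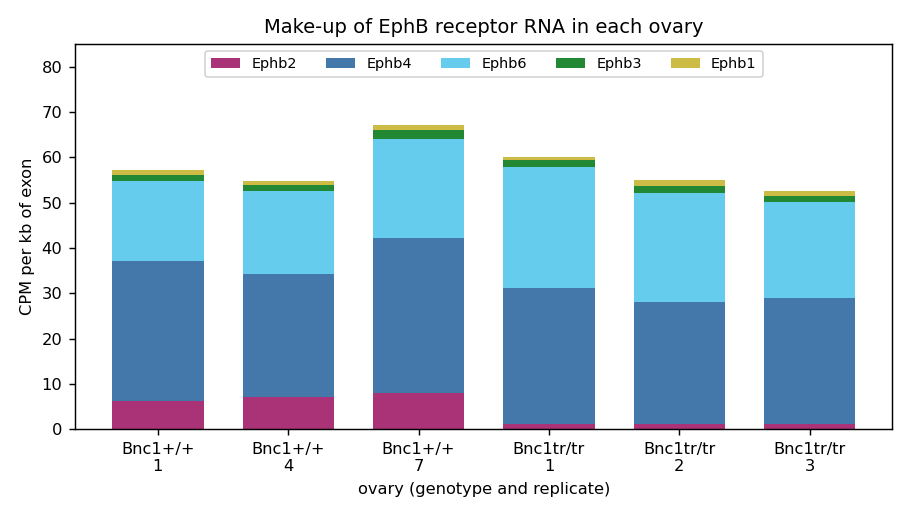
Level of each EphB receptor in CPM per kb of exon, stacked for each of the 6 ovaries. On this scale the height of the bars overlaps between the genotypes (54.8 to 67.3 in Bnc1+/+ and 52.5 to 60.2 in Bnc1tr/tr ovaries), while the summed CPM does not (299.9 to 363 and 240.2 to 271), and the Ephb2 segment at the base goes from 11.9 ± 0.940% to 2.06 ± 0.131% of the bar (SD, n = 3 each).

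Whether reads could be shared between the paralogs was examined on the GENCODE transcripts. Of 12650 distinct 50-base words in Ephb2 transcripts, 28 (0.221%) also occurred, on either strand, in a transcript of another gene, and none of the genes sharing the most was a member. The share was 0.118% for Ephb3 and 0% for Ephb4, Ephb6 and the ligands, and 1.55% for Ephb1, whose shared words came from the overlapping antisense gene Gm26846. No annotated gene overlapped Ephb2, Ephb3 or Ephb6. Zan overlaps Ephb4 on the opposite strand. Efnb2 is overlapped on its own strand by E230020D15Rik, Gm45074 and Gm45073, none of them among the genes counted. Several genes besides Gm26846 overlap Ephb1. On its own strand these are Gm37562, Gm29388 and Mir7243, and of these only Mir7243 is among the genes counted. Strand use in the counting is not given in the sources used here.

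The A-class receptors and ligands, which form the sister system with ligands tied to the membrane by a lipid anchor, were not used to choose the family. Like the other gene lists, this one was chosen with earlier results of these data known. All 14 of them were tested, and 1 passed the threshold (7.14%, against 7.06% of all genes). Epha2, a receptor known from epithelial cells, fell from 10.7, 13.0 and 12.2 CPM in Bnc1+/+ to 7.04, 9.05 and 6.94 CPM in Bnc1tr/tr ovaries. The difference came to -0.64 on the log2 scale, with a standard error of 0.15 and a Benjamini-Hochberg adjusted p of 0.0487 in edgeR, and all 3 Bnc1tr/tr ovaries lay below the Bnc1+/+ ovaries. The adjusted p from edgeR was 0.0781, 0.187 and 0.147 without Bnc1+/+ replicate 1, 4 or 7, 0.101 and 0.144 without Bnc1tr/tr replicate 1 or 3, and 0.0334 without Bnc1tr/tr replicate 2.

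The other A-class genes did not pass. Epha3 had a log2 fold change of -0.90 and Epha8 of -1.32, and Epha4 had 0.51, Efna3 1.15, Epha6 1.57 and Epha10 1.38, with edgeR's Benjamini-Hochberg adjusted p from 0.0583 to 0.130. Most of these are low in the ovary: Epha6 was at 3 to 5 reads in each Bnc1+/+ ovary and Epha8 at 11 to 103 reads over all 6 ovaries. Efna1 was the highest A-class gene by CPM, at 38.4 ± 3.38 in Bnc1+/+ and 39.6 ± 2.25 in Bnc1tr/tr ovaries (SD, n = 3 each). The median log2 fold change of the 14 was 0.017, with 7 positive and 7 negative values, and the CPM ranges did not overlap for 7 of them (50%, against 30.8% of all genes), 4 with Bnc1tr/tr above and 3 below.

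**Figure D3:**
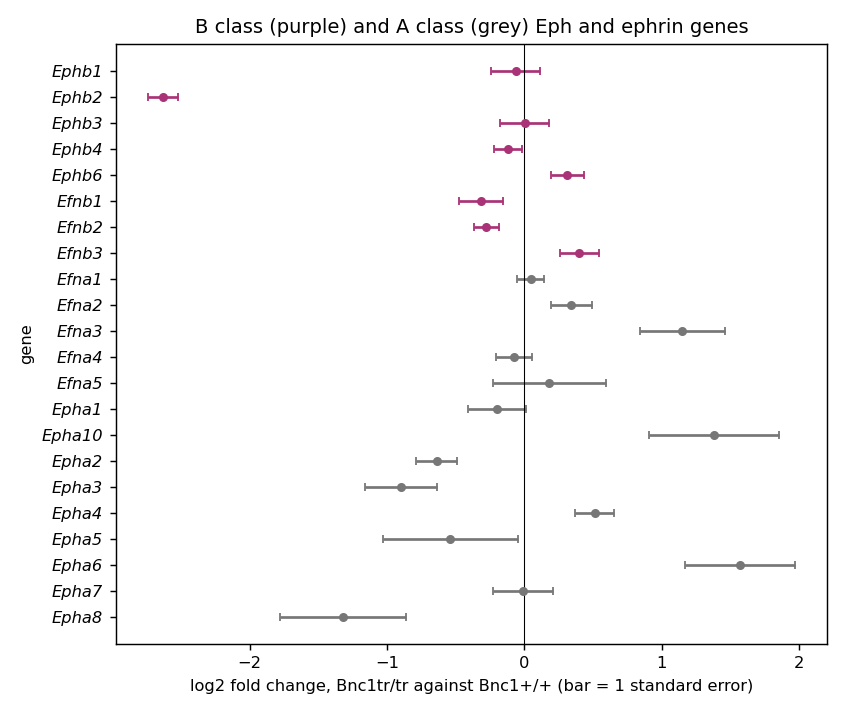
Log2 fold change of Bnc1tr/tr against Bnc1+/+ ovaries for the 8 B-class genes (purple) and 14 A-class genes (grey), with bars of 1 standard error. Ephb2 stands alone at -2.63, the other B-class genes lie between -0.32 and 0.40, and the A-class genes spread from -1.32 to 1.57.

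Genes that carry the signal onward were followed in 39 genes known to act with EphB receptors or ephrin-B ligands, all of them tested. Of these 3 passed the threshold (7.69%, against 7.06% of all genes), with 2 lower and 1 higher in Bnc1tr/tr ovaries, and the median log2 fold change was 0.069. Among the 19 genes of forward signalling, 2 fell and 17 did not pass. Arhgef15, which EphB2 controls in neurons and which is also found in vascular endothelium, was at 29.1, 34.5 and 32.9 CPM in Bnc1+/+ and at 19.1, 17.7 and 16.2 CPM in Bnc1tr/tr ovaries. This was a change of -0.86 on the log2 scale (edgeR, standard error 0.11, Benjamini-Hochberg adjusted p = 0.00532), and it passed under all 14 alternatives. Kalrn, the Rac exchange factor kalirin that acts below EphB2 in dendritic spines, fell from 50.4, 62.1 and 107 CPM to 34, 23.7 and 23.4 CPM. This was a change of -1.43 on the log2 scale (edgeR, standard error 0.28, Benjamini-Hochberg adjusted p = 0.028), and the adjusted p was 0.0873 without Bnc1+/+ replicate 4 and 0.0686 and 0.0899 without Bnc1tr/tr replicate 2 or 3.

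The adaptors and kinases next to the receptor gave smaller values. Nck1 and Rasa1, which dock on activated EphB receptors, had log2 fold changes of 0.19 and 0.21, and the Src-family kinases Src, Fyn and Yes1 had -0.15, 0.11 and 0.069. The Rac exchange factor Tiam1 was at 36.5 ± 0.996 and 43.8 ± 1.07 CPM (SD, n = 3 each) and did not pass (edgeR, Benjamini-Hochberg adjusted p = 0.0792). Of the 12 genes of reverse signalling 0 passed in edgeR, and 1 (Dvl2) had an unadjusted p under 0.05. The adaptor Nck2 (Grb4) had a log2 fold change of -0.027, and the PDZ proteins Pick1 and Sdcbp had 0.11 and -0.024. Of the 8 genes that shed or switch off Eph receptors and ephrins, Ptpro, a receptor phosphatase that acts on Eph receptors, rose from 2.45, 2.18 and 2.45 CPM in Bnc1+/+ to 4.55, 3.85 and 4.23 CPM in Bnc1tr/tr ovaries. The change was 0.84 on the log2 scale (edgeR, standard error 0.19, Benjamini-Hochberg adjusted p = 0.0396), and leaving out any single ovary took the adjusted p to between 0.0528 and 0.162. Adam10, the main sheddase of ephrins, was at 100.4 ± 2.68 and 115 ± 1.89 CPM (SD, n = 3 each) and did not pass.

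Upstream of Ephb2 lie the complement genes C1qa, C1qb and C1qc and the A-class receptor Epha8. These neighbours were chosen by position after the Ephb2 values were seen. Within 500 kb of Ephb2 on either side, 17 other annotated genes were tested, and 3 passed the threshold, E2f2 and Tcea3 higher and Cdc42 lower, against 7.06% of all genes tested. Their median log2 fold change was -0.027, and the lowest was -1.69 for the lincRNA Gm13003, which had 2 to 15 reads per ovary. C1qb, whose start lies at -50.2 kb (upstream) from that of Ephb2, was at 97.6, 109 and 114 CPM in Bnc1+/+ and 63.8, 138 and 89.0 CPM in Bnc1tr/tr ovaries, and the genotypes overlapped. Epha8, whose start is at -121 kb, had a log2 fold change of -1.32 (standard error 0.46) and did not pass (edgeR, Benjamini-Hochberg adjusted p = 0.13). On the downstream side the nearest protein-coding genes tested were Kdm1a (log2 fold change -0.16) and Luzp1 (0.0081). Cdc42, the small GTPase that several Eph receptors act on, changed by -0.38 on the log2 scale (edgeR, standard error 0.085, Benjamini-Hochberg adjusted p = 0.0404). With each ovary left out in turn its adjusted p was 0.0625 to 0.163, and it was 0.0848 with library size as the sole scaling. The adjusted p of Tcea3 was 0.058 without Bnc1+/+ replicate 4.

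**Figure D4:**
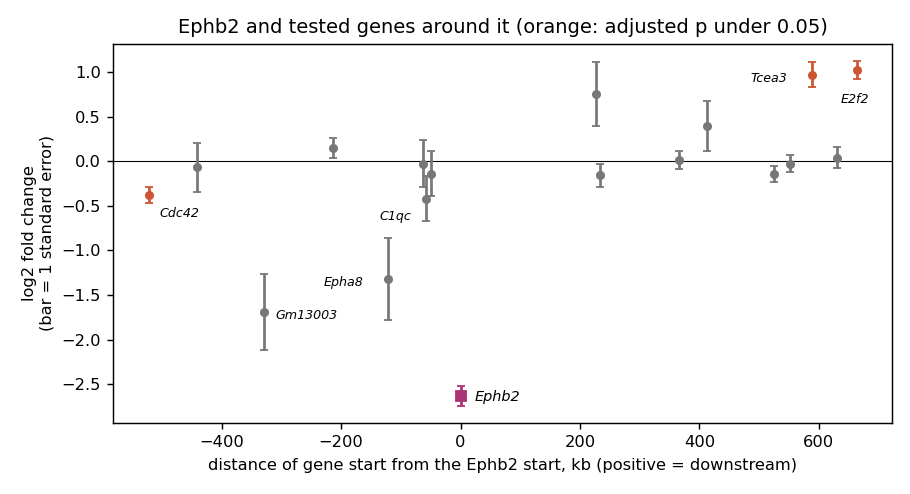
Log2 fold change of Ephb2 (purple square) and of the 17 tested genes whose nearer end lies within 500 kb of it, by the distance of each gene start from that of Ephb2 in kb, positive downstream; bars are 1 standard error and orange points passed the threshold. Ephb2 lies at -2.63, and none of the genes around it reaches below -1.69.

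Markers of other cell types moved with the genotype beside these genes. In RNA from whole ovaries, fewer cells of a type and less RNA per cell cannot be told apart. Of 8 corpus luteum markers 6 were lower in Bnc1tr/tr ovaries and 0 higher past the threshold (4.19% and 2.88% of all genes), with a median log2 fold change of -1.96. Their summed CPM was 5994, 7577 and 6899 in the Bnc1+/+ group and 1136, 1894 and 1620.5 in the Bnc1tr/tr group, and none of the 8 was at 0 in every ovary. Lhcgr, the luteinizing hormone receptor, was at 544, 800.1 and 728 CPM in Bnc1+/+ and at 92.8, 86.0 and 79.0 CPM in Bnc1tr/tr ovaries. Ephb2 came to 14.7%, 11.2% and 13.7% of the Lhcgr CPM in Bnc1+/+ and to 16.5%, 15.8% and 18.5% in Bnc1tr/tr ovaries, without overlap. Such a share depends on the marker. Among the 6 lower luteal markers the log2 fold changes ran from -3.82 (Hsd17b7) to -1.45 (Prlr), with Lhcgr at -3.01. Set against the summed luteal markers Ephb2 was at 1.18% to 1.45% in Bnc1+/+ and at 0.715% to 1.35% in Bnc1tr/tr ovaries, and these ranges overlapped. The other 2 luteal markers, Akr1c18 and Parm1, did not pass, with log2 fold changes of -0.78 and -0.37 and overlapping ranges. Some luteal markers varied more than Ephb2 within a genotype. Akr1c18, which breaks down progesterone, ranged from 12.2 to 103 CPM in Bnc1+/+ and from 6.72 to 71.8 CPM in Bnc1tr/tr ovaries. The part of luteal tissue in the Ephb2 result was not tested.

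**Figure D5:**
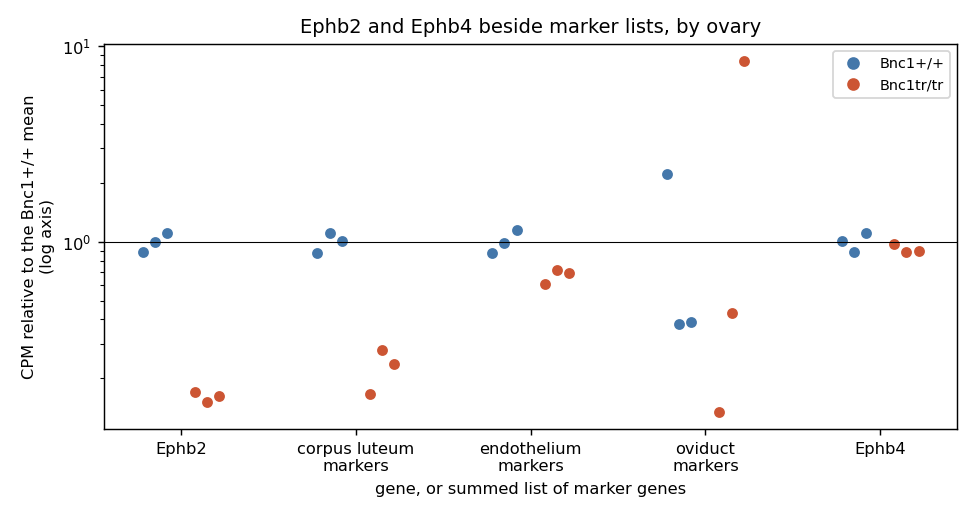
CPM of Ephb2 and Ephb4 and summed CPM of the corpus luteum, endothelium and oviduct marker lists in each ovary, relative to the Bnc1+/+ mean of each (log axis), with Bnc1+/+ in blue and Bnc1tr/tr in orange. Ephb2 and the luteal markers are low in all 3 Bnc1tr/tr ovaries, the endothelial markers less so, Ephb4 overlaps between the genotypes, and the oviduct markers are highest in Bnc1tr/tr replicate 3.

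The vascular pair Ephb4 and Efnb2 was set beside vessel markers. Of 14 endothelial markers 6 were lower past the threshold, among them Pecam1 (log2 fold change -0.85) and Kdr, the main VEGF receptor (-0.66), and 1, Vwf, was higher (0.75). Of all genes tested 4.19% were lower and 2.88% higher. None was at 0 in every ovary, and their summed CPM was 1154 to 1508 in Bnc1+/+ and 805 to 945 in Bnc1tr/tr ovaries. Ephb4 came to 12.4%, 9.72% and 10.5% of that sum in Bnc1+/+ and to 17.3%, 13.3% and 14.1% in Bnc1tr/tr ovaries, so that the ranges did not overlap. Efnb2 came to 1.63% to 1.91% in Bnc1+/+ and 1.99% to 2.39% in Bnc1tr/tr ovaries, again without overlap. These shares depend on the marker sum, which was itself lower in every Bnc1tr/tr ovary. By CPM alone, Ephb4 overlapped between the genotypes and Efnb2 was lower in Bnc1tr/tr ovaries. Of 7 arterial markers 3 were lower, the Notch ligand Dll4 at -0.88 among them, and 0 higher. Of 5 genes listed as venous markers Nr2f2 was higher (0.53) and Aplnr lower (-0.66). RNA from whole ovaries does not show which cells the arterial and venous markers came from. The part of vessel content in the Ephb4 and Efnb2 values was not tested.

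The summed oviduct markers differed widely between single ovaries of both genotypes. Of 7 markers 6 were found and tested, 0 passed in edgeR, and 1 had an unadjusted p under 0.05, Pax8, which was higher in every Bnc1tr/tr than in every Bnc1+/+ ovary (log2 fold change 1.65). Their summed CPM was 136, 23.2 and 23.8 in the Bnc1+/+ group and 8.22, 26.2 and 510.2 in the Bnc1tr/tr group. Efnb3 was also highest in Bnc1tr/tr replicate 3, at 17.4 CPM. Within Bnc1+/+ it was at 10.4 CPM in replicate 1, which had the most oviduct marker CPM of that group. It was at 11.3 and 11.6 CPM in Bnc1+/+ replicates 4 and 7. The log2 fold change of Efnb3 went from 0.40 to 0.25 without Bnc1tr/tr replicate 3 alone and to 0.34 without Bnc1+/+ replicate 1 alone. With both left out it was 0.20, and that of Ephb2 was -2.72. Leaving out both was chosen after seeing the data. The part of oviduct RNA in the Efnb3 and Ephb2 values was not tested. Of 9 oocyte markers 3 were higher and 0 lower, and of 8 granulosa cell markers 1, Amh, was higher and 0 lower, against 2.88% higher and 4.19% lower of all genes tested. No marker of theca and stroma, surface epithelium, macrophages or neurons and glia passed in edgeR, and markers of these lists with an unadjusted p under 0.05 numbered from 1 to 2 a list. Of 5 lymphatic markers 2 were higher and of 7 mural markers 2 were lower.

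The genes whose pattern over the 6 ovaries was most like that of Ephb2 were Unc13d, Enpp6 and Kcng2, with a root mean square difference of 0.14, 0.15 and 0.18 in centred log2 CPM, among 16753 genes with a mean of at least 1 CPM. Unc13d, which primes vesicles for release, was at 136, 179.9 and 169.9 CPM in Bnc1+/+ and at 21.9, 23.2 and 24.6 CPM in Bnc1tr/tr ovaries. Enpp6, a choline phosphodiesterase, had a log2 fold change of -2.42, and Kcng2, a potassium channel subunit, -2.55. Of the ligands Efnb3 had the largest absolute log2 fold change, and Lgi2, Trim59 and Gm19209 were closest to it, at differences of 0.045 to 0.059. These likenesses are over 6 libraries that differ by genotype, and describe the pattern only.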

How the data were processed

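The authors extracted ovary RNA with TRIzol, built libraries with the Ion Total RNA-Seq Kit v2.0 and sequenced them single-end on the Ion Proton. They deposited raw read counts per gene symbol. The submitters' processing notes name the builds mm10 and Sscrofa10.2 without a role, and the aligner, counter and annotation are not given in the sources used here. The members and gene lists were chosen with earlier results of these data known.

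From the deposited counts, edgeR 4.0.16 (R 4.3.3) was run with TMM scaling, filterByExpr (minimum count 10) and the quasi-likelihood test of Bnc1tr/tr against Bnc1+/+, without covariates, and Benjamini-Hochberg adjustment over 19423 genes with a threshold of 0.05. The script was tested on simulated data. Totals of 25247770 to 34406296 counts limit precision for genes of a few reads. Named genes were the members, Bnc1, genes of the EphA, ephrin-A and signalling lists past the threshold (up to 8 a list), the first 3 genes of a marker list, and the 3 nearest patterns (at least 1 CPM) of the receptor and the ligand with the largest change. The other genes named, the neighbours included, were chosen after their values were seen. Alternatives were other scalings, filters, DESeq2 1.42.0, limma 3.58.1 (voom) and each ovary left out.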

Additional observations from a re-analysis of the deposited data

How the results depend on the processing

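The count of EphB and ephrin-B genes past the threshold was 1 under all alternatives except an unadjusted p under 0.05, which gave 4, and Ephb2 was past it in 14 of 14. The family was chosen on these same counts, so this describes the processing only and is no test of Ephb2. For the A class, the count of 1 became 3 with library size as the sole scaling (Epha2 not among them, edgeR Benjamini-Hochberg adjusted p = 0.0691), 4 with the DESeq2 Wald test, 7 with an unadjusted p under 0.05, and 0 in edgeR with at least 10 counts in every ovary (6 at an unadjusted p under 0.05). It was 0 to 1 with each ovary left out (5 to 8 unadjusted), and 0 without Bnc1+/+ replicate 1, 4 or 7 or Bnc1tr/tr replicate 1 or 3. For the signalling and shut-off genes, the count of 3 became 6 with library size, 10 with an unadjusted p, and 1 to 2 with each ovary left out (1 without Bnc1+/+ replicate 4 or Bnc1tr/tr replicate 2 or 3). Without both Bnc1+/+ replicate 1 and Bnc1tr/tr replicate 3, an alternative chosen after seeing the data, the counts were 0 (A class, 5 unadjusted) and 1 (signalling). The cause of these shifts was not tested. Over all genes 1372 passed, against 2420 with DESeq2, 781, 320 and 518 without Bnc1+/+ replicate 1, 4 or 7, 634 without Bnc1tr/tr replicate 3, and 304 without both ovaries. No paired analysis was possible because the genotypes share only replicate number 1 and, although littermates were compared, the labels do not say which ovaries came from which litter.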
